A study of Homo sapiens with 6 samples.

Results

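The adhesion G protein-coupled receptors were described in LN229 cells, an established human glioblastoma cell line, with and without the ADP-ribosyltransferase PARP3. Members were the protein-coding genes whose symbol is ADGR followed by a subfamily letter and number, and 25 of the 33841 listed genes met this rule. The comparison was between parental cells (WT, PARP3+/+) and a PARP3-/- derivative made with CRISPR/Cas9. Each genotype had 3 biological replicates, and the same serum-containing medium was used for both. The PARP3-/- cells were grown from single colonies, the sources used here do not name the clone that was sequenced, and differences between clones and effects of PARP3 loss cannot be told apart. Total RNA was depleted of ribosomal RNA and sequenced as strand-specific libraries of short reads.

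Adhesion receptors carry a long extracellular part that ends in a GAIN domain, which in most of them cuts itself next to the membrane, followed by the transmembrane helices shared by all G protein-coupled receptors. The extracellular part binds matrix proteins or proteins on neighbouring cells, and the short stretch exposed after the cut, the tethered agonist, can switch on G proteins. Members act in synapse formation, myelination, vessel growth, hearing and immunity, and several are studied in glioma.

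The libraries held 29692065 to 46010369 counts on genes, so that 3 counts, taken as the floor, equalled 0.0673 to 0.0995 CPM (counts scaled to the size of the library, here adjusted by the TMM method). This floor covers counting error only. Replicates with the same number deviated together from their genotype means, and replicate 1 stood apart from the others in both genotypes. Replicates 2 and 3 were not clearly matched by number. A fit with the replicate number as a block is given beside the main fit where it changes a call. PARP3 itself had 34.8, 22.4 and 24.2 CPM in the WT libraries and 19.0, 22.5 and 19.5 CPM in the PARP3-/- libraries. Its groups overlapped, and the log2 fold change was -0.42 ± 0.18 (SE, adjusted p = 0.307 by edgeR's quasi-likelihood test, 0.0469 with the block). The RNA level therefore did not separate the genotypes, and WT and PARP3-/- name the libraries by their labels throughout. In the paper, both LN229 knockout clones carry a deletion within PARP3 on both alleles by sequencing. Western blots were used there to check that the protein was absent. The counts used here are per gene and do not show which exons were read. Of the glial and glioma markers, VIM (3680 to 4380 CPM), NES (697 to 1060 CPM) and CD44 (456 to 607 CPM) were high in all 6 libraries. S100B had 78.1 to 234 CPM, SOX2 29.1 to 45.5 CPM and OLIG2 8.95 to 16.1 CPM. The astrocyte marker GFAP, in contrast, was at 0.0332 to 0.414 CPM, under the filter.

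Of the 25 members, 13 had enough counts to be tested and 12 did not. The 12 were ADGRB1, ADGRE2, ADGRF1 to ADGRF5, ADGRG2, ADGRG3, ADGRG5, ADGRG7 and ADGRL4. The highest count among them in any library was 10, for ADGRF3, and 10 of the 12 had at most 3 counts in every library. ADGRF2, for example, had 0 counts in each WT library and 1 in each PARP3-/- library, which is under the floor. No difference in these 12 was detectable at this depth.

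Promoter sequences from RefSeq (GRCh38.p14, 250 bases before the transcription start) were found for 16 of the 25 members. Sequence is shown for ADGRV1, the member that rose, and for ADGRE1 and ADGRB2, which held the fewest and the most CG dinucleotides among the matched members called in either fit. The promoter of ADGRV1 lies at chr5:90558547-90558796 on the plus strand, that of ADGRE1 at chr19:6887329-6887578 on the plus strand and that of ADGRB2 at chr1:31764341-31764590 on the minus strand. Each is written 5′ to 3′ with its CG dinucleotides in capitals.
ADGRV1: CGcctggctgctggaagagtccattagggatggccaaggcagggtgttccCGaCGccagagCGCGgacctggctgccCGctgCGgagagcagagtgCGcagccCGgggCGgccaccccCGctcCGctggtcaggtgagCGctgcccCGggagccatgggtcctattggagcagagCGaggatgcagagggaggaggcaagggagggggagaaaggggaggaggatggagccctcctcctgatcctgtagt
ADGRE1: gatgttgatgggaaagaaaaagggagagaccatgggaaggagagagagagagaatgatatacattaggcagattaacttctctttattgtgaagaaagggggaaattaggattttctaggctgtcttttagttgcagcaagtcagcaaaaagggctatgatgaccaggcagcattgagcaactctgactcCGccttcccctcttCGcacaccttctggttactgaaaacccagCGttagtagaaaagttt
ADGRB2: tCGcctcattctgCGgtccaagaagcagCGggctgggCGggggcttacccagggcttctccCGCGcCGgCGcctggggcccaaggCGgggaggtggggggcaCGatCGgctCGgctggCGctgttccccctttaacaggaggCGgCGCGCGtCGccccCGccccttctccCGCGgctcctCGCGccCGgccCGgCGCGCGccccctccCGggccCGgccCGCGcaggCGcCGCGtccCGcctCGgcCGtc
CG reads the same on both strands, and 93.6% of the 27305 promoters of the table held at least 1, with a median of 11. The ADGRV1 promoter held 15, a number reached or exceeded by 42.7% of all promoters. The ADGRE1 promoter held 3 (76.4% had at least as many) and the ADGRB2 promoter 38 (3.16%). The counted ADGRV1 gene begins at position 90529344 of chromosome 5, upstream of this RefSeq start, so the window is 1 of the possible starts of the gene.

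In WT cells, levels per length ordered the 13 tested members over a wide range. Levels between genes are given as CPM per kb of the canonical GENCODE 44 transcript. ADGRA3, a receptor linked to WNT signalling, was at 21.0 ± 1.72 CPM per kb (SD, n = 3), and ADGRE5 (CD97), which binds CD55, was at 20 ± 3.21. The libraries of these neighbours overlapped. ADGRL2 (latrophilin-2, a synaptic and vascular adhesion receptor) followed with 10.7 ± 1.09 and ADGRG1 (GPR56, a receptor for collagen III in cortical development) with 10.1 ± 2.12, and these also overlapped.
Below them stood ADGRA2 (GPR124, a WNT7 co-receptor of brain vessels) at 4.42 ± 0.509 CPM per kb, ADGRL1 (latrophilin-1, a teneurin receptor) at 3.99 ± 0.0531 and ADGRG6 (GPR126, needed for Schwann cell myelination) at 3.77 ± 0.868. ADGRL1 overlapped with each of its neighbours in this order. ADGRB2 (BAI2) was at 2.10 ± 0.179, ADGRL3 (latrophilin-3) at 1.57 ± 0.0657 and ADGRE1 (EMR1, a receptor of myeloid cells) at 0.763 ± 0.0339, each apart from the next. ADGRB3 (BAI3, a receptor for C1q-like proteins) at 0.135 ± 0.0702 and ADGRD1 at 0.127 ± 0.000812 overlapped, and ADGRV1 was lowest of the 13 at 0.0351 ± 0.00742 CPM per kb.
The order depended on the length used. With the median transcript length that the authors deposited for each gene, ADGRL2 was 6th, ADGRG1 3rd, ADGRL1 4th and ADGRV1 12th, while ADGRA3 and ADGRE5 stayed first and second.

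**Figure D1:**
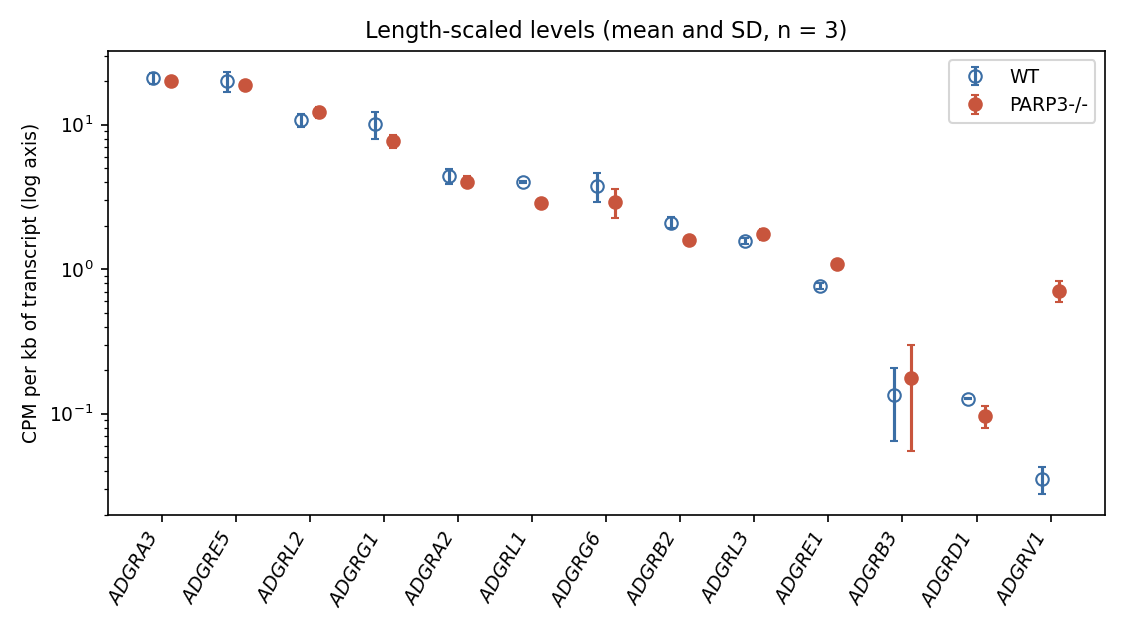
Level of each tested adhesion receptor gene in CPM per kb of canonical transcript (log axis). Points are means and bars are SDs over 3 WT (open) or 3 PARP3-/- (filled) libraries. ADGRA3 and ADGRE5 lie near 20 CPM per kb in both genotypes, and ADGRV1 moves from 0.0351 to 0.711.

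The summed level of the family was close in both genotypes. The members together had 432, 388 and 405 CPM in the WT libraries and 413, 392 and 387 CPM in the PARP3-/- libraries. These ranges overlapped, with means of 408 ± 22.3 and 397 ± 13.8 CPM (SD, n = 3). ADGRA3, ADGRL2, ADGRE5 and ADGRG1 together made up 69.1% of the sum in WT and 69.2% in PARP3-/- cells. ADGRV1 rose from 0.168% to 3.5% of it.

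Among the 13 tested members, ADGRV1 rose and ADGRL1 fell in PARP3-/- cells. That is 1 member higher, where 1.36% of all 17144 tested genes were called higher, and 1 lower, where 3.33% of all were called lower (adjusted p under 0.05, edgeR's quasi-likelihood test with Benjamini-Hochberg adjustment over all tested genes). With the replicate block, ADGRV1, ADGRE1 and ADGRL2 were called higher, against 11.8% of all genes, and ADGRB2, ADGRG1, ADGRG6 and ADGRL1 lower, against 12.5%. The libraries of the genotypes did not overlap in 6 of the 13 members, 2 higher and 4 lower, compared with 22.8% of all tested genes. The median log2 fold change was -0.10 over the members and -0.0062 over all tested genes. By sign, 8 members were lower and 5 higher, and 5 lay within 0.2 of 0 on the log2 scale.

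**Figure D2:**
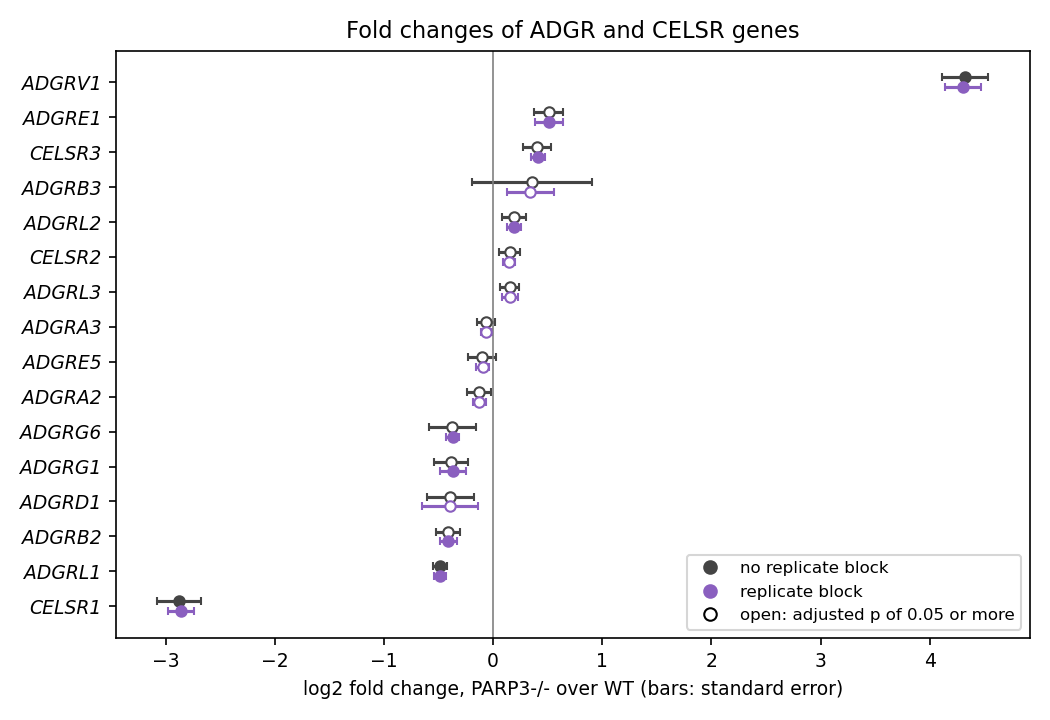
Log2 fold change of PARP3-/- over WT for the 13 tested members and CELSR1 to CELSR3, with bars for the standard error, in the fits without and with the replicate block. Filled points passed the threshold. ADGRV1 stands at 4.32, the other 12 members lie between -0.49 and 0.51, and CELSR1 stands at -2.87.

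ADGRV1 (VLGR1, ENSG00000164199; chromosome 5, 90529344 to 91164437, plus strand, hg38) encodes the longest adhesion receptor. It carries many calcium-binding Calx-beta repeats, forms ankle links between the stereocilia of hair cells and is needed for hearing. Its canonical transcript has 90 exons and 19557 bases. The 3 WT libraries held 19, 32 and 32 counts on it and the PARP3-/- libraries 498, 571 and 469. In CPM these were 0.520, 0.762 and 0.780 against 16.5, 12.8 and 12.4. Every PARP3-/- library lay far above every WT library, and all WT libraries lay above the floor. ADGRV1 rose 20-fold, with a log2 fold change of 4.32 ± 0.21 (SE, adjusted p = 0.000160 by edgeR, 3.47e-08 with the block). The same-numbered pairs differed by 4.99, 4.07 and 3.99 on the log2 scale. The call held without any 1 of the 6 libraries, at log2 fold changes of 4.17 to 4.42 (adjusted p 0.000305 to 0.00277 by edgeR). Only 5 of the 17144 tested genes had a higher fitted log2 fold change. Per length, ADGRV1 reached 0.711 ± 0.116 CPM per kb in PARP3-/- cells and moved from the last to the 11th place among the 13 tested members.
In these bulk libraries, more cells with the transcript and more of it per cell cannot be told apart.

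Genes around ADGRV1 were not called. Within 1 Mb of the gene, 13 other genes were listed and 8 were tested, and 0 were called by edgeR without or with the block. Their log2 fold changes ran from -0.18 to 0.26. Of all tested genes, 1.36% were called higher and 3.33% lower, and 11.8% and 12.5% with the block. LYSMD3, which overlaps ADGRV1 on the opposite strand, had up to 2234 counts and a log2 fold change of 0.11 ± 0.24 (SE, adjusted p = 0.909, edgeR). The strand setting of the read counting is not given in the sources used here, and counting in union mode leaves out reads that overlap several genes.

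ADGRL1 (ENSG00000072071; chromosome 19, 14147743 to 14206187, minus strand) fell. Latrophilin-1 was identified as a receptor for the black widow toxin alpha-latrotoxin, and it binds teneurins and FLRT proteins across cell contacts. It had 31.4, 30.7 and 31.5 CPM in the WT libraries and 22.7, 22.1 and 22.0 CPM in the PARP3-/- libraries. The spread within each genotype was under 1 CPM, and the groups were well apart. The log2 fold change was -0.49 ± 0.07 (SE, adjusted p = 0.00954 by edgeR, 1.50e-04 with the block), a 1.40-fold lower level. All 3 same-numbered pairs were lower, by -0.464, -0.478 and -0.518 on the log2 scale. The call was lost without WT replicate 3 (adjusted p = 0.0685), PARP3-/- replicate 2 (0.0711) or PARP3-/- replicate 3 (0.0782, edgeR), while the log2 fold change stayed between -0.50 and -0.48.
Within 1 Mb of ADGRL1, 57 genes were listed and 32 tested. Of all tested genes, 1.36% were called higher and 3.33% lower, and of these 32, 1 was called. This was IL27RA, a cytokine receptor subunit whose midpoint lies 163.7 kb from the start of ADGRL1, which fell by 2.11 on the log2 scale (SE 0.20, adjusted p = 0.00203, edgeR). With the block, 2 neighbours were higher and 2 lower, where 11.8% and 12.5% of all tested genes were. The overlapping gene AC022098.1 on the opposite strand had at most 85 counts and a log2 fold change of 0.12 (adjusted p = 0.896, edgeR).

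**Figure D3:**
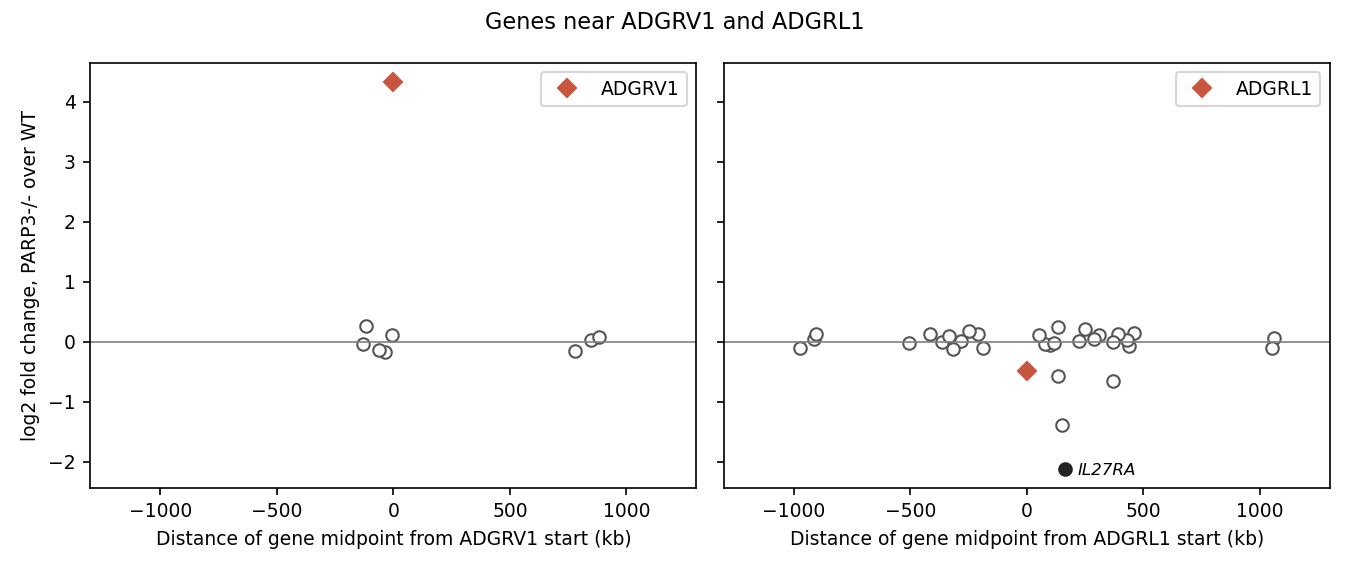
Log2 fold change of the tested genes within 1 Mb of ADGRV1 and ADGRL1, plotted against the distance of their midpoint from the start of the member in kb, with the filled circle for a called gene. The neighbours of ADGRV1 lie between -0.18 and 0.26 beside its own 4.32, and IL27RA stands at -2.11 near ADGRL1.

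The other latrophilins were not called lower in either fit. ADGRL2 had 79.5, 71.0 and 87.2 CPM in the WT libraries and 100, 83.2 and 88.2 CPM in the PARP3-/- libraries. The groups overlapped, since WT replicate 3 lay above PARP3-/- replicate 2, but each PARP3-/- library was above the WT library of its own number. Its log2 fold change was 0.19 ± 0.11 (SE, adjusted p = 0.476, edgeR), and with the block it was called (adjusted p = 0.0455). ADGRL3, a latrophilin linked to attention deficit disorder, had 22.2, 22.0 and 20.6 CPM in WT and 21.7, 24.6 and 25.6 CPM in PARP3-/- libraries. These overlapped (log2 fold change 0.15 ± 0.09, adjusted p = 0.507, edgeR).

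ADGRE1 was higher in each PARP3-/- library, at a low level. It had 2.38, 2.48 and 2.27 CPM in WT (87, 104 and 93 counts) and 3.22, 3.45 and 3.47 CPM in PARP3-/- libraries (97, 154 and 131 counts). The groups did not overlap. The log2 fold change was 0.51 ± 0.13 (SE, adjusted p = 0.0944, edgeR), which missed the threshold without the block and passed it with the block (adjusted p = 0.0165). ADGRE1 is known from eosinophils and, as F4/80 in mice, from macrophages. Of 6 leukocyte markers, 4 were listed and 0 were tested, and their summed level was 0.132 to 0.298 CPM over all libraries. The defining leukocyte gene PTPRC had at most 0.0897 CPM. The related ADGRE5, abundant in these cells, had 75.7, 59.0 and 57.1 CPM in WT and 63.4, 60.4 and 54.7 CPM in PARP3-/- libraries. Its groups overlapped (log2 fold change -0.10 ± 0.13, adjusted p = 0.802, edgeR).

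ADGRB2, a brain receptor named after the angiogenesis inhibitors of its subfamily, had 10.9, 12.0 and 13 CPM in WT and 8.39, 9.18 and 9.42 CPM in PARP3-/- libraries. The groups did not overlap, and every same-numbered pair was lower. Its log2 fold change of -0.41 ± 0.11 (SE) missed the threshold in the main fit (adjusted p = 0.0999, edgeR) and passed it with the block (adjusted p = 0.00321). ADGRB3, in contrast, had 1.31, 0.524 and 0.634 CPM in WT and 1.92, 0.561 and 0.741 CPM in PARP3-/- libraries. Replicate 1 was the high library in both genotypes, 2.27 times the mean of the others in WT and 2.96 times in PARP3-/- cells. The log2 fold change of ADGRB3 was 0.35 ± 0.55 (adjusted p = 0.857, edgeR), and without PARP3-/- replicate 1 it was -0.33.

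ADGRG1 had 53.0, 39.9 and 35.7 CPM in the WT libraries and 29.1, 35.1 and 34.3 CPM in the PARP3-/- libraries. All PARP3-/- libraries were lower than all WT libraries, but WT replicate 3 and PARP3-/- replicate 2 differed little. Its log2 fold change was -0.39 ± 0.16 (SE, adjusted p = 0.292, edgeR), and -0.37 with the block (adjusted p = 0.0486). The same-numbered pairs differed by -0.867, -0.188 and -0.060 on the log2 scale, so the difference was largest in the first pair.
ADGRG6 showed the reverse layout, with overlapping groups and even differences between same-numbered libraries. It had 32.3, 20.7 and 24.3 CPM in WT and 25.2, 16.5 and 18.0 CPM in PARP3-/- libraries, and replicate 1 was highest in both. The same-numbered libraries differed by -0.358, -0.324 and -0.432 on the log2 scale. Replicates 2 and 3 are matched here by their labels only, and their pairing is not established. The ADGRG6 log2 fold change of -0.37 ± 0.21 (SE) was not called without the block (adjusted p = 0.478, edgeR) and was called with it (adjusted p = 0.00134).

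ADGRA2, ADGRA3 and ADGRD1 were not called in either fit. ADGRA2 ran from 27.5 to 34.5 CPM in WT and from 26.0 to 30.6 CPM in PARP3-/- libraries (log2 fold change -0.13, adjusted p = 0.675, edgeR). ADGRA3 ran from 86.9 to 101 CPM and from 88.7 to 95.5 CPM (log2 fold change -0.06, adjusted p = 0.821, edgeR). ADGRD1, a receptor with its own tethered agonist, had 25, 29 and 28 counts in WT and 16, 27 and 16 counts in PARP3-/- libraries. Its CPM did not overlap, at 0.682 to 0.691 against 0.423 to 0.606, yet with so few counts the log2 fold change of -0.39 ± 0.22 (SE) was not called (adjusted p = 0.463, edgeR).

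**Figure D4:**
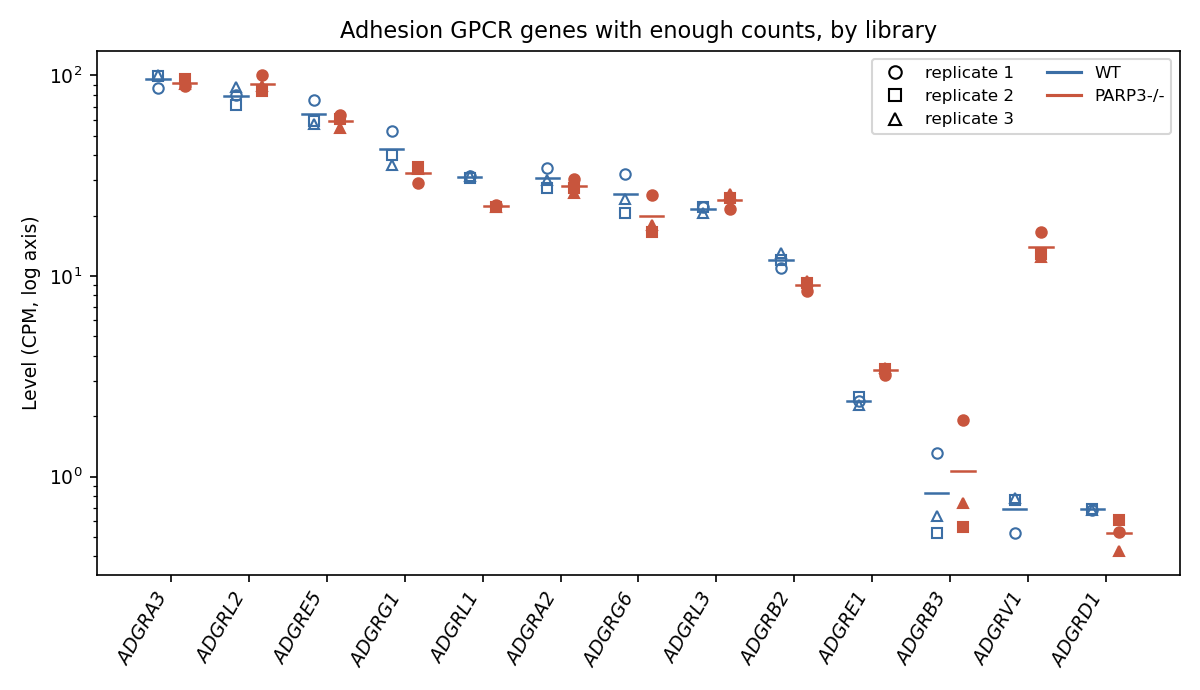
CPM of each tested member in each of the 6 libraries (log axis), with a symbol for each replicate number, open for WT and filled for PARP3-/-, and short lines for the genotype means. ADGRV1 lies at 0.520 to 0.780 CPM in WT and at 12.4 to 16.5 CPM in PARP3-/- libraries, and replicate 1 is the highest ADGRG6 library in both genotypes.

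Replicate 1 lay to the same side of the other replicates in both genotypes for 6 of the 13 tested members. The share of all tested genes that do so was not counted. Replicate 1 lay above both other replicates in both genotypes for 4 of the 13 tested members (ADGRA2, ADGRB3, ADGRE5 and ADGRG6) and below both for 2 (ADGRA3 and ADGRB2). The other members were between in both genotypes (1, ADGRD1) or differed in position (6). The block takes out differences of this kind, and their part in the results was not tested.

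The adhesion receptors of subfamily C keep the names CELSR1 to CELSR3 and so stand outside the 25. They are cadherin-bearing receptors of planar cell polarity, the alignment of cells within a sheet. CELSR1 had 18.8, 14.3 and 14.3 CPM in the WT libraries and 2.39, 2.42 and 1.64 CPM in the PARP3-/- libraries, with a wide gap between the groups. It fell by 2.87 on the log2 scale (SE 0.20, adjusted p = 0.000586, edgeR), a 7.33-fold lower level, and was called without each library in turn. CELSR2 was not called (log2 fold change 0.15, adjusted p = 0.539, edgeR). CELSR3 had 23.9, 18.1 and 19.2 CPM in WT and 29.9, 25.6 and 25.6 CPM in PARP3-/- libraries. These did not overlap, but CELSR3 was called with the block alone (log2 fold change 0.41, adjusted p = 0.166 by edgeR, 0.000813 with the block).
VANGL2, a core polarity protein, had 4.19, 2.79 and 3.46 CPM in WT and 0 counts in each PARP3-/- library. Against the floor of 3 counts per library it was at least 34.9-fold lower (adjusted p = 0.00152, edgeR). Its paralogue VANGL1 was not called (log2 fold change 0.13, adjusted p = 0.840, edgeR).

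Ligands, binding partners and signalling genes of the receptors were taken from 8 lists. These lists were chosen with earlier results of these data known. Their shares of called genes therefore cannot show whether partners changed more often than other genes. Of the 79 genes of the lists other than CELSR1 to CELSR3, 75 were listed and 60 tested. In PARP3-/- cells 3 of the 60 were higher and 7 lower by edgeR, where 1.36% and 3.33% of all tested genes were called, and 13 were higher and 13 lower with the block, where 11.8% and 12.5% of all were. Of those not described below, TENM2, C1QL1, COL4A3, LRP5, DLG1, GNAS, GNAI1 and ARHGEF1 were called higher with the block alone (log2 fold change 0.17 to 1.48 in the fit without it), and NRXN3, LRP6, ADCY1, ADCY6 and FZD3 lower (-0.96 to -0.26). The median log2 fold change of the 60 was 0.0011, against -0.0062 over all tested genes.

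The latrophilin ligands moved in both directions. FLRT2, a leucine-rich ligand of latrophilins, had 7.77, 5.43 and 5.90 CPM in WT and 12.3, 12.0 and 12.6 CPM in PARP3-/- libraries, and rose by 0.95 on the log2 scale (SE 0.15, adjusted p = 0.0163, edgeR). Its relative FLRT3 fell by 0.57 (SE 0.09, adjusted p = 0.0195), from 139 ± 11.8 to 93.7 ± 6.42 CPM (SD, n = 3). With each library left out in turn, FLRT2 was called in 3 of 6 fits (not without WT replicate 3, PARP3-/- replicate 2 or PARP3-/- replicate 3) and FLRT3 in 1 of 6 (without WT replicate 1). Of the teneurins, TENM3 at 195 ± 11.6 against 255 ± 11.1 CPM just missed the threshold (log2 fold change 0.39, adjusted p = 0.0503 by edgeR, 0.000299 with the block). TENM1 was called lower with the block alone (log2 fold change -0.86, adjusted p = 0.114 by edgeR, 0.000458 with the block). The list of latrophilin partners thus held 1 higher and 1 lower gene among 8 tested (1.36% and 3.33% of all tested genes). With the block it held 3 and 3 (11.8% and 12.5%).

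Called ligands of ADGRG1 and ADGRG6 were higher. In their list, 2 of 9 tested genes were called higher and 0 lower (1.36% and 3.33% of all tested genes), and 4 and 0 with the block (11.8% and 12.5%). TGM2, a transglutaminase that binds ADGRG1, had 459, 433 and 369 CPM in WT and 762, 828 and 729 CPM in PARP3-/- libraries, and rose by 0.88 on the log2 scale (SE 0.11, adjusted p = 0.00690, edgeR). COL4A1, a chain of the collagen IV that binds ADGRG6, rose by 0.50 (SE 0.09, adjusted p = 0.0263), from 319 ± 21.3 to 451 ± 20.7 CPM (SD, n = 3), but with a library left out it was called in 1 of 6 fits, that without WT replicate 1. Its partner chain COL4A2 had a log2 fold change of 0.40 (adjusted p = 0.0830 by edgeR, 0.000607 with the block). PRNP, the prion protein and an ADGRG6 ligand, was abundant at 579 to 719 CPM in WT and 525 to 571 CPM in PARP3-/- libraries, and was not called (adjusted p = 0.469, edgeR).

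Among the partners of the ADGRB receptors, 2 of 8 tested genes were lower, compared with 3.33% of all tested genes. This list, like the others, was chosen with earlier results known, so the difference in shares is not a test. ELMO1, the adaptor that couples ADGRB1 to RAC activation during engulfment, had 5.17, 5.07 and 6.46 CPM in WT and at most 1 count in any PARP3-/- library. It was at least 55.9-fold lower against the floor (adjusted p = 0.000162, edgeR). Its paralogue ELMO2, at 75.5 ± 3.35 CPM in WT and 76.7 ± 1.78 CPM in PARP3-/- libraries (SD, n = 3), was not called (adjusted p = 0.944, edgeR). DOCK1 of the same list, at 159 ± 13.9 and 170 ± 18.9 CPM, was not called either (adjusted p = 0.786, edgeR). RTN4R, the Nogo receptor, had 1.09, 1.19 and 1.34 CPM in WT and 0.332, 0.292 and 0.370 CPM in PARP3-/- libraries, and fell by 1.86 on the log2 scale (SE 0.21, adjusted p = 0.00417, edgeR). ADGRB1 itself had at most 3 counts in any library.

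ADGRV1 works in hair cells and photoreceptors with scaffold and motor proteins of the hair bundle. Of the 3 such genes tested, 0 were called higher and 1 lower, both without and with the block. Of all tested genes, 1.36% were called higher and 3.33% lower, and 11.8% and 12.5% with the block. The scaffold WHRN (log2 fold change 0.04, adjusted p = 0.966) and its relative PDZD7 (-0.05, adjusted p = 0.961) were not called by edgeR. MYO7A, an unconventional myosin of the hair bundle, had 1.92, 1.29 and 1.19 CPM in WT and 0.0332, 0.0224 and 0.106 CPM in PARP3-/- libraries, and fell (adjusted p = 0.00237, edgeR). The PARP3-/- libraries held 1, 1 and 4 counts, at or near the floor, so the fitted log2 fold change of -4.69 is imprecise, and it was -5.61 without PARP3-/- replicate 3.

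Most downstream genes were not called. Of 21 tested genes for G proteins, arrestins, RhoGEFs and adenylyl cyclases, 0 were higher and 2 lower by edgeR. Of all tested genes, 1.36% and 3.33% were. With the block, 3 of the 21 were higher and 4 lower, where 11.8% and 12.5% of all tested genes were. ARRB1, an arrestin that ends receptor signalling, had 2.85, 4.69 and 4.36 CPM in WT and 0.265, 0.314 and 0.238 CPM in PARP3-/- libraries. It fell by 3.84 on the log2 scale (SE 0.28, adjusted p = 0.000643, edgeR). The more abundant arrestin ARRB2, at 24.6 ± 0.775 CPM in WT and 23.3 ± 1.43 CPM in PARP3-/- libraries, was not called (adjusted p = 0.770, edgeR). GNAZ, an inhibitory G protein subunit, fell by 1.32 (SE 0.18, adjusted p = 0.00769), from 6.0 ± 0.961 to 2.39 ± 0.307 CPM (SD, n = 3). GNA13, through which several adhesion receptors signal to RHOA, had 145 ± 12.3 and 159 ± 2.57 CPM and was not called (adjusted p = 0.565, edgeR). Among partners of ADGRA2 and ADGRA3, 0 of 5 tested genes were called. With the block, 2 were higher and 1 lower, where 11.8% and 12.5% of all tested genes were. Of the ADGRE5 ligands, CD55 was not called (log2 fold change 0.14, adjusted p = 0.816, edgeR). THY1 was under the filter, with 15, 9 and 13 counts in WT and 0, 1 and 1 in PARP3-/- libraries, at least 3.15-fold lower against the floor. DESeq2, which applied another filter, called it lower (adjusted p = 0.0134).

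**Figure D5:**
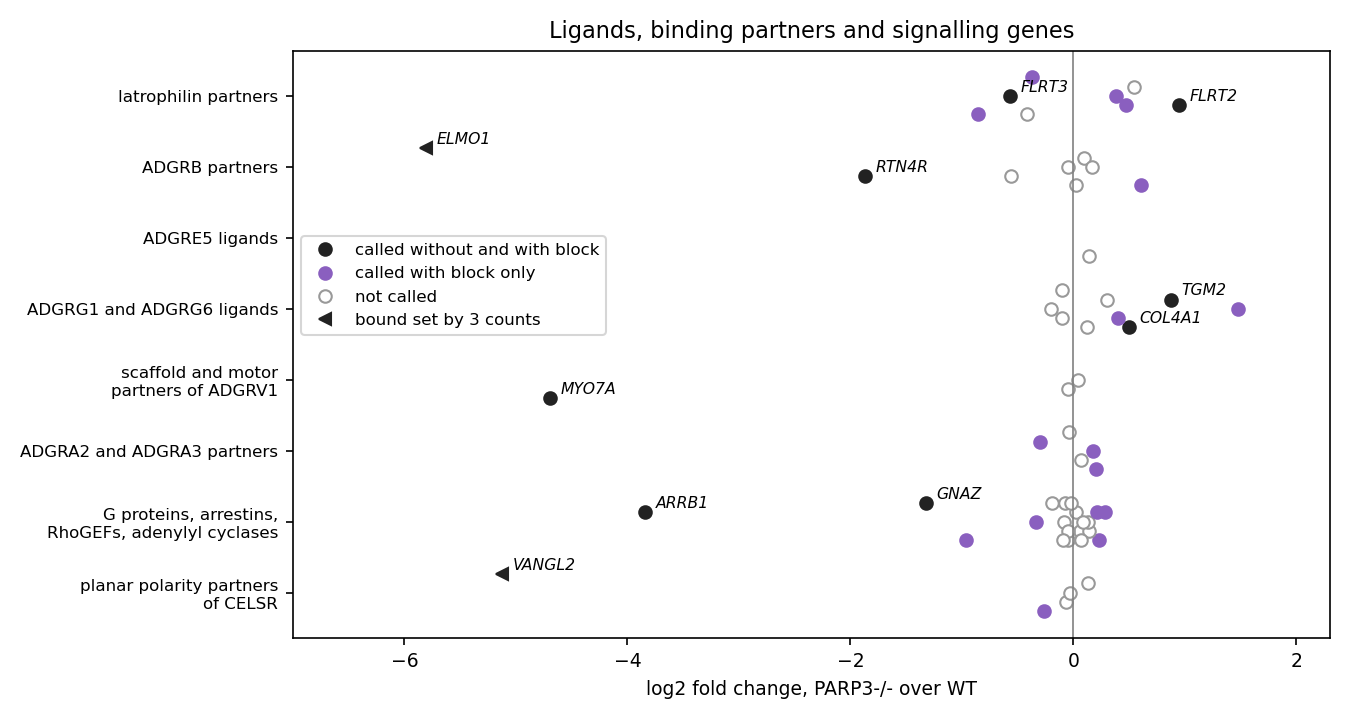
Log2 fold change of PARP3-/- over WT for the tested partner genes, 1 row per list. Black points were called without and with the replicate block, purple points with it alone, open points in neither fit, and triangles are bounds set by 3 counts. FLRT2, TGM2 and COL4A1 lie right of 0 at 0.50 to 0.95, and ELMO1, VANGL2, MYO7A and ARRB1 lie farthest left.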

How the data were processed

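Libraries of total RNA from 3 WT and 3 PARP3-/- LN229 cultures were analysed. The authors trimmed reads with cutadapt 1.10, removed ribosomal and spike-in reads with Bowtie2 2.2.8, aligned to hg38 with STAR 2.5.3a and counted reads per Ensembl 91 gene with HTSeq 0.6.1p1 in union mode, per the methods and the submitters' processing notes. The deposited values are raw counts. The labels name polyA RNA, whereas their protocol describes total RNA. A further 12 columns of per-sample values and 3 columns of the authors' own comparison (log2 ratio, p-value and adjusted p-value) were not used. The authors also deposited a median transcript length per gene, used for the alternative order of levels.

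Counts were analysed in R 4.3.3 with edgeR 4.0.16 (TMM, filterByExpr with a minimum count of 10, quasi-likelihood test, two-sided, Benjamini-Hochberg adjustment over 17144 genes, calls at an adjusted p under 0.05). The SE of each log2 fold change was obtained by dividing it by the square root of F. A replicate block was fitted beside it. Deviations from the genotype means correlated over genes by 0.788, 0.680 and 0.383 between same-numbered libraries of the labels, and by -0.765 to 0.576 between others. Replicate 1 was thus set apart in both genotypes. PARP3-/- replicate 3 correlated more with WT replicate 2 (0.576) than with WT replicate 3 (0.383). The correlations therefore do not establish a pairing of replicates 2 and 3, and the block follows the labels. Alternatives were DESeq2 1.42.0, median-of-ratios size factors, no filter, a mean count of at least 50, an adjusted p under 0.001 with a log2 fold change beyond 1, and each library left out. The libraries held 29692065 to 46010369 counts.

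The members and the gene lists were chosen with earlier results of these data known. Members and partner genes called in either fit, CELSR1 to CELSR3, PARP3 and genes within 1 Mb of a called member that were called without the block are named, and an item of the lists is not reported here. Canonical transcripts came from GENCODE 44 and promoters from RefSeq.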

Additional observations from a re-analysis of the deposited data

How the results depend on the processing

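The counts of called genes depended on the fit. With the replicate block, 3 members were higher and 4 lower (1 and 1 without it), 13 partner genes were higher and 13 lower (3 and 7), 2023 of all tested genes were higher and 2143 lower (234 and 571), and PARP3 was called at a log2 fold change of -0.39. DESeq2 called 475 genes higher and 871 lower, and 5 partner genes higher and 13 lower. Without a filter, 11 partner genes were lower, and with a mean count of at least 50, 331 of all genes were lower. Under the strict rule (adjusted p under 0.001, log2 fold change beyond 1), 0 members were lower, 6 and 76 of all genes were higher and lower, and 0 and 2 partner genes. With each library left out in turn, 0 to 1 members were lower, 49 to 259 of all genes were higher and 281 to 606 lower, and 1 to 4 partner genes were higher. Leaving out WT replicate 3, PARP3-/- replicate 2 or PARP3-/- replicate 3 each ended the call of ADGRL1 and left 1 partner gene higher. FLRT2 also lost its call without each of these 3 libraries, and COL4A1 and FLRT3 lost theirs without each library except WT replicate 1. GNAZ was not called without PARP3-/- replicate 3 (adjusted p = 0.0502, edgeR). The log2 fold change of ADGRB3 was -0.33 without PARP3-/- replicate 1 and up to 0.84 without another library, and that of ADGRE5 was 0.034 without WT replicate 1 and down to -0.18. The cause was not tested. Of 446 values for 41 named genes under these alternatives, 394 kept their direction and side of the threshold, 17 lost a call, 33 gained one (22 of them under the block) and 2 reversed. With 3 libraries per genotype and few counts for ADGRD1, ADGRB3 and WT ADGRV1, precision is limited for these genes.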

Other observations

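The antisense gene ADGRD1-AS1, which lies within ADGRD1 on the opposite strand and is not a member, had 4.40 ± 0.274 CPM in WT and 4.76 ± 0.391 CPM in PARP3-/- libraries (SD, n = 3; log2 fold change 0.11; adjusted p = 0.787, edgeR), a higher count than ADGRD1 itself in each library. Since the strand setting of the counting is not given in the sources used here, reads of the pair may not be fully separated. The pseudogene ADGRF5P1 was tested and not called (log2 fold change -0.26; adjusted p = 0.827, edgeR), whereas ADGRF5 was under the filter.

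Near members called with the block alone, 3 genes were called without it. They were 1 lower of 35 tested near ADGRB2, 1 lower of 33 near ADGRG1 and 1 higher of 5 near ADGRG6. Near ADGRE1, 0 of 35 were called, and near ADGRL2, 0 genes were tested. Of all tested genes, 1.36% were called higher and 3.33% lower. SERINC2, a membrane protein near ADGRB2, fell by 1.90 on the log2 scale (SE 0.36; adjusted p = 0.0309, edgeR). MMP15, a membrane-bound matrix metalloproteinase near ADGRG1, fell by 1.24 (SE 0.18; adjusted p = 0.0117), from 28.7 ± 6.04 to 12.1 ± 1.72 CPM. HIVEP2, a zinc finger transcription factor near ADGRG6, rose by 0.55 (SE 0.09; adjusted p = 0.0161), from 18.1 ± 1.01 to 26.5 ± 1.67 CPM (SD, n = 3). S100B, a glial calcium-binding protein, fell by 1.06 (SE 0.19; adjusted p = 0.0256, edgeR), from 194 ± 44.2 to 93.0 ± 13.8 CPM. It was the single gene called among 6 tested glial and glioma markers, where 3.33% of all tested genes were called lower. With the block, 0 of the 6 were higher and 4 lower, where 11.8% and 12.5% of all tested genes were. Of the endothelial markers, 2 of 6 were tested and 0 called, and the summed level of the list was 0.786 to 1.59 CPM.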
